A study of Caenorhabditis remanei with 28 samples.

Results

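The 150 genes described here are those whose expression differed most between libraries of the same population, in each of 4 populations of the nematode Caenorhabditis remanei. They were chosen from 25337 gene identifiers by their spread in 22 libraries. Levels are CPM, a gene's counts per 1000000 gene counts of the library, and a gene had to average between 10 and 300 CPM in each population, which 5833 genes did. Within each population the SD was divided by the mean to give a coefficient of variation, the smallest of the 4 coefficients was taken as the gene's score, and the 150 highest scores were kept. Replicates 1 to 6 of the heat, oxidative and control populations and 3 to 6 of the ancestor entered the choice. Replicates 7 and 8 of the heat, control and ancestor populations did not, and serve here as libraries in which the same genes could be looked at again.

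The study sequenced poly-A RNA of pooled L1 larvae, about 100000 per library, from a heat-selected population (n = 8), an oxidative-selected population (n = 6), a control-selected population (n = 8) and their ancestor, strain PX443 (n = 6, replicates 3 to 8). The 3 selected populations were all derived from PX443, and each regime was 1 population, so that selection and drift cannot be told apart. All were grown on E. coli OP50 at 20 °C. Embryos were released by bleaching and kept for 20 h in buffer without food, and the larvae passed a 20 µm filter. The protocol names a warmer incubation beside 20 °C, no temperature stands in the titles of heat and oxidative libraries, and the series design puts all libraries at 20 °C. Nothing states that the replicates were grown as separate cultures, and the p-values then reflect only how these particular libraries differ among themselves, part of which may be technical.

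As background, nematode larvae that hatch without food halt their development in L1 and resume it when fed, a state worked out in C. elegans. A pool of such larvae holds all tissues at once, and the RNA of a library is an average over its animals. In bulk RNA of this kind, fewer cells of a type and less RNA per cell cannot be told apart. The files do not pair the identifiers with gene names, and 0 of 25337 matched RefSeq's gene table for assembly CRPX506. The functions and positions of the 150 genes are therefore not stated, and the larval stage could not be checked against marker genes.

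The 150 genes moved together from library to library. Their summed level was 10452 CPM in heat replicate 1 and 2401 CPM in heat replicate 3, and was 3625, 2467, 4945 and 2767 CPM in heat replicates 2, 4, 5 and 6. In the oxidative population it was 4926, 3318, 1749, 6641, 3596 and 3048 CPM in replicates 1 to 6. In the control population it was 5072, 8089, 4525, 2781, 2980 and 2303 CPM in replicates 1 to 6. In the ancestor it was 3765, 2028, 7221 and 1774 CPM in replicates 3 to 6. Each population thus had 1 library above all its others, and the span from its lowest to its highest library was 4.35-fold, 3.80-fold, 3.51-fold and 4.07-fold in the heat, oxidative, control and ancestor populations. Because the genes were chosen for spread in these libraries, the spans describe the choice and were not tested. The populations overlapped, with means of 4443 ± 3096 CPM (SD, n = 6) in heat, 3880 ± 1694 (n = 6) in oxidative, 4292 ± 2147 (n = 6) in control and 3697 ± 2511 CPM (n = 4) in ancestor libraries.

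**Figure D1:**
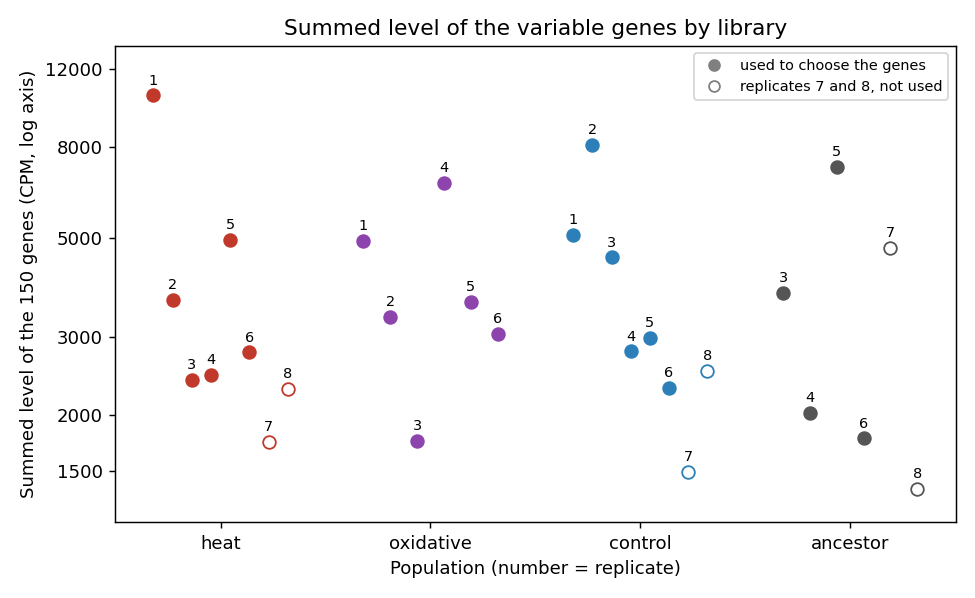
Summed CPM of the 150 genes (log axis) in each library of the 4 populations, with replicate numbers beside the points; filled points are libraries used to choose the genes and open points are replicates 7 and 8. The highest points are heat replicate 1 at 10452 CPM, control replicate 2 at 8089, ancestor replicate 5 at 7221 and oxidative replicate 4 at 6641.

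The same libraries were high for nearly all of the genes. Heat replicate 1 was the highest heat library for 144 of the 150, oxidative replicate 4 the highest oxidative library for 132, control replicate 2 the highest control library for 137 and ancestor replicate 5 the highest ancestor library for 147. They were also highest for 54.1%, 45.4%, 53.2% and 61.8% of the genes in the level range, in that order. In 118 of the 150 genes (78.7%) all 4 of these libraries were the highest of their population at once, against 1462 of the 5833 genes in the level range (25.1%). The genes were chosen by their spread in these same libraries, so these contrasts are a description and were not tested. Most of the genes shared their lowest library too. Heat replicate 3 was lowest for 111, oxidative replicate 3 for 143, control replicate 6 for 104 and ancestor replicate 6 for 110 of the 150, while the same libraries were lowest for 43.2%, 50.7%, 38.9% and 52.9% of the genes in the level range, in that order.

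How far each gene moved differed between populations. The coefficient of variation had a median over the 150 genes of 0.779 in heat, 0.438 in oxidative, 0.520 in control and 0.723 in ancestor libraries, beside 0.277, 0.151, 0.222 and 0.234 for all 5833 genes in the level range. The rule ranked genes by this coefficient, so the higher values of the 150 genes follow from the choice. The order of the populations was the same in both sets. A gene's highest library stood above its lowest by a median of 6.39-fold in heat, 3.71-fold in oxidative, 3.89-fold in control and 4.68-fold in ancestor libraries. The oxidative population had the smallest coefficient for 103 of the 150, so that it set the score of most of them, as it did for 65.6% of the range. Counting error accounted for a median of between 2.06% and 5.99% of the variance of the 150 genes, depending on the population.

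The gene with the highest score was FL81_12810, at 0.776. It stood at 162, 52.6, 5.14, 11.0, 17.2 and 9.76 CPM in heat replicates 1 to 6 and at 22.6, 21.2, 3.48, 45.1, 10.1 and 11.2 CPM in oxidative replicates 1 to 6. It stood at 35.2, 82.4, 24.5, 8.05, 9.25 and 6.14 CPM in control replicates 1 to 6 and at 13.4, 5.52, 38.8 and 3.34 CPM in ancestor replicates 3 to 6. Its highest library of each population was the one that was highest for the 150 genes together, and the populations overlapped. The next 5 scores belonged to FL81_05232 (0.730), FL81_13484 (0.685), FL81_10972 (0.619), FL81_12806 (0.582) and FL81_07538 (0.568). FL81_13484 was the most abundant of these, with a mean of 62.7 CPM in heat, 98.4 in oxidative, 89.2 in control and 41.2 in ancestor libraries, and a highest level of 231, 204, 226 and 78.5 CPM in them. The limit of the list is not a gap. FL81_17437 and FL81_21109 were just inside it with scores of 0.3821 and 0.3818, and FL81_05641 and FL81_20413 just outside with 0.3817 and 0.3817.

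To see whether the genes formed more than 1 group, log2(CPM + 0.5) was centred on the mean of each population's libraries used for the choice, and each pair of genes was correlated over the 22 libraries. These libraries differ in depth, which all pairs share, and they are the ones whose spread chose the genes. That choice itself favours a high r among the 150 genes, so the values are given as a description without p. Pearson's r averaged 0.83 over the 11175 pairs, with a median of 0.89, against an average of 0.19 over all pairs in the level range. It was at least 0.8 in 86.4% of the pairs among the 150 genes and in 11.0% of the pairs in the range. Within single populations the average r was 0.81 in heat (n = 6), 0.84 in oxidative (n = 6), 0.83 in control (n = 6) and 0.90 in ancestor libraries (n = 4). Over all pairs in the level range it was 0.16, 0.15, 0.24 and 0.23, in that order. Of those pairs, 31.1% reached 0.8 in the ancestor and between 14.5% and 20.1% in the other populations. The ancestor's 0.90, from 4 libraries, is therefore not directly comparable with the rest. The leading component held 85.9% of the centred variance of the 150 genes and the next one 3.81%.

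Clustering at an r of 0.5 put 147 of the 150 genes in 1 cluster. The mean deviation of these 147 genes in a library is called the common level below. The 2 genes whose r with the other genes of the cluster was highest were FL81_14778 and FL81_19443, with averages of 0.92 for both. FL81_14778 stood at 258, 65.4, 37.4, 45.2, 105 and 50.7 CPM in heat replicates 1 to 6, at 121, 71.2, 38.4, 152.1, 88.2 and 82.0 CPM in oxidative replicates 1 to 6, at 126, 172, 90.8, 68.7, 64.5 and 54.2 CPM in control replicates 1 to 6 and at 83.4, 46.5, 187 and 37.8 CPM in ancestor replicates 3 to 6. Its mean level was nearly the same in all populations, at 93.6 ± 83.9 CPM in heat, 92.1 ± 39.6 in oxidative, 96.0 ± 45.1 in control and 88.6 ± 68.4 CPM in ancestor libraries (SD, n = 6, 6, 6 and 4), while its highest library lay at least 3.17-fold above its lowest in each.

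**Figure D2:**
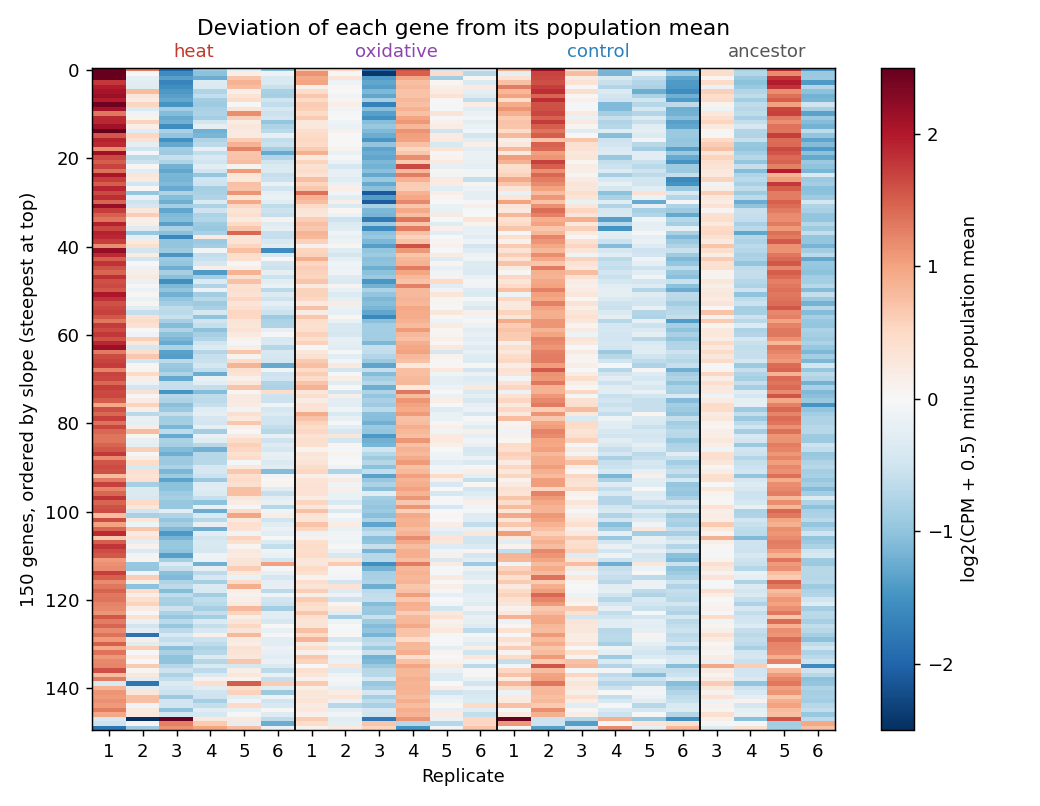
Deviation of each of the 150 genes (rows, ordered by slope against the common level) from its population mean, as log2(CPM + 0.5), in the 22 libraries used to choose them (columns); red is above the mean and blue below. Whole columns share a colour, red in heat replicate 1, oxidative replicate 4, control replicate 2 and ancestor replicate 5, and the 3 rows at the foot of the plot do not share it.

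The genes of the cluster differed in how steeply they followed the common level. The slope of a gene's log2 level against the common level, the gene itself left out of that level, was between 0.68 and 1.78 over the 147 genes with a median of 0.98, and was at least 1.2 in 16 of them. FL81_12810 had the steepest slope. The r of a cluster gene with the common level was at least 0.9 in 127 of the 147, and was lowest in FL81_18302 (0.61) and FL81_23074 (0.72); FL81_23074 was named after its value was seen.

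The 3 genes outside the cluster were named after their values were seen. FL81_15502 ran opposite to the common level, with an r of -0.82 and a slope of -0.96. It stood at 9.64, 18.5, 77.1, 69.8, 59.9 and 31.5 CPM in heat replicates 1 to 6, at 45.9, 50.6, 62.7, 15.1, 41.3 and 70.4 CPM in oxidative replicates 1 to 6, at 106, 40.4, 74.0, 236, 90.2 and 185 CPM in control replicates 1 to 6 and at 58.5, 94.0, 40.4 and 120 CPM in ancestor replicates 3 to 6. Its lowest library of each population was therefore the one that was highest for the rest. FL81_02838 also ran opposite, with an r of -0.53. FL81_19471 followed neither (r = 0.20), standing at 544 CPM in heat replicate 3 against 8.53 to 70.7 CPM in the other heat libraries.

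The common level was not particular to the 150 genes. On the scale of library totals, 143 of the 150 genes (95.3%) had an r with it of at least 0.8 over the 22 libraries. So did 2093 of the 5683 other genes in the level range (36.8%). The leading component of those other genes, computed without the 150, held 67.6% of their centred variance, and its r with the common level was 0.99. The 150 genes differed from the others in slope, which a choice by spread favours. The median slope was 0.97 in the 150 genes and 0.23 in the other genes of the range, of which 571 reached 0.7. The 3 other genes most like the common level were FL81_15189, FL81_20110 and FL81_10862, each with an r of 0.99 over the 22 libraries, and slopes of 0.89, 0.90 and 1.06. At the opposite end, 103 of the 5683 other genes had an r of -0.8 or below on that scale. These made up 0.634% of counts in heat replicate 1 and 1.28% in heat replicate 3.

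**Figure D3:**
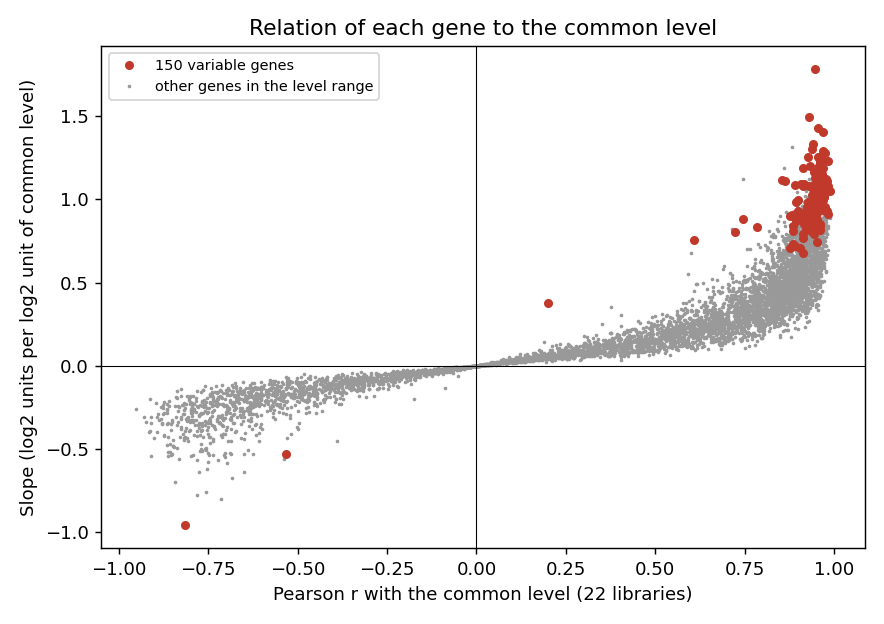
Slope against the common level (log2 units per log2 unit) and Pearson's r with it for the 150 genes (large points) and the 5683 other genes in the level range (small points), over 22 libraries. The 150 genes fill the steep end at the upper right, with a median slope of 0.97 against 0.23, and 3 of them lie apart. All values are on the scale of library totals.

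These levels are shares of a library, which sum to the same total in each, and the scaling of the libraries was changed to see how far that mattered. With TMM (trimmed mean of M-values, which scales libraries so that most genes keep their level), the average r among the 150 genes was 0.74 and their largest cluster held 145 genes. The average r over the range dropped to 0.01, while its leading component still held 59.6% of the centred variance, against 69.4% on library totals. The median gene of the range lay between -0.30 and 0.38 log2 units from its population mean over the 22 libraries on the scale of library totals, 0.38 in heat replicate 1 and 0.31 in ancestor replicate 5. Relative to the median gene, the span of the common level from the lowest to the highest library was 3.60-fold in heat, 2.94-fold in oxidative, 2.57-fold in control and 2.92-fold in ancestor libraries, and the same libraries were highest and lowest. The slope was above 0 in 148 of the 150 genes under both scalings. Among other genes of the range the sign depended on the scaling, with slopes below 0 in 25.3% on library totals and in 54.6% with TMM. With TMM, 764 of these 5683 genes (13.4%) had an r with the common level of at least 0.8. An r of -0.8 or below was found in 998 of them (17.6%). Of the 150 genes, 133 (88.7%) reached 0.8 with TMM. Among 450 genes above 300 CPM in every population, slopes were below 0 in 63.8% on library totals and in 92.9% with TMM. Those genes together held 47.9% of counts in heat replicate 1 and 65.6% in heat replicate 3, 54.1% in oxidative replicate 4 and 63.0% in oxidative replicate 3, 53.0% in control replicate 2 and 65.8% in control replicate 6, and 54.5% in ancestor replicate 5 and 67.4% in ancestor replicate 6.

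The concentration of counts moved with the common level in all 4 populations, and depth did so less evenly. The library with the highest common level was the shallowest of the libraries used in the oxidative (3103341 gene counts), control (1809122) and ancestor populations (4534564), and the second shallowest in heat (1555582). In heat the order by depth did not follow the level: replicate 2 was the shallowest (1406684) with a common level at the population mean, and replicate 5, the deepest of the 6 (4306080), had the second highest level, at 0.40 log2 units above it. The 100 most abundant genes took their smallest share of counts in exactly these libraries, 25.1% in heat replicate 1, 29.5% in oxidative replicate 4, 29.0% in control replicate 2 and 30.8% in ancestor replicate 5. Their largest share fell in the libraries with the lowest common level, 39.8% in heat replicate 3, 36.5% in oxidative replicate 3, 39.2% in control replicate 6 and 41.2% in ancestor replicate 6. Thinned to the 1406684 counts of the shallowest library, heat replicate 1 still held counts for 15581 genes and heat replicate 3 for 13893, oxidative replicate 4 for 14743 and oxidative replicate 3 for 13674, control replicate 2 for 15476 and control replicate 6 for 14076, and ancestor replicate 5 for 15364 and ancestor replicate 6 for 13816. With all libraries thinned to that total, a check added after seeing the data, the median coefficient of variation of the 150 genes was 0.783 in heat, 0.471 in oxidative, 0.540 in control and 0.747 in ancestor libraries, and their average r was 0.77. Thinning keeps each gene's expected share and adds counting noise, so these values bear on counting noise only. The part of depth and of the concentration of counts in these results was not tested.

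**Figure D4:**
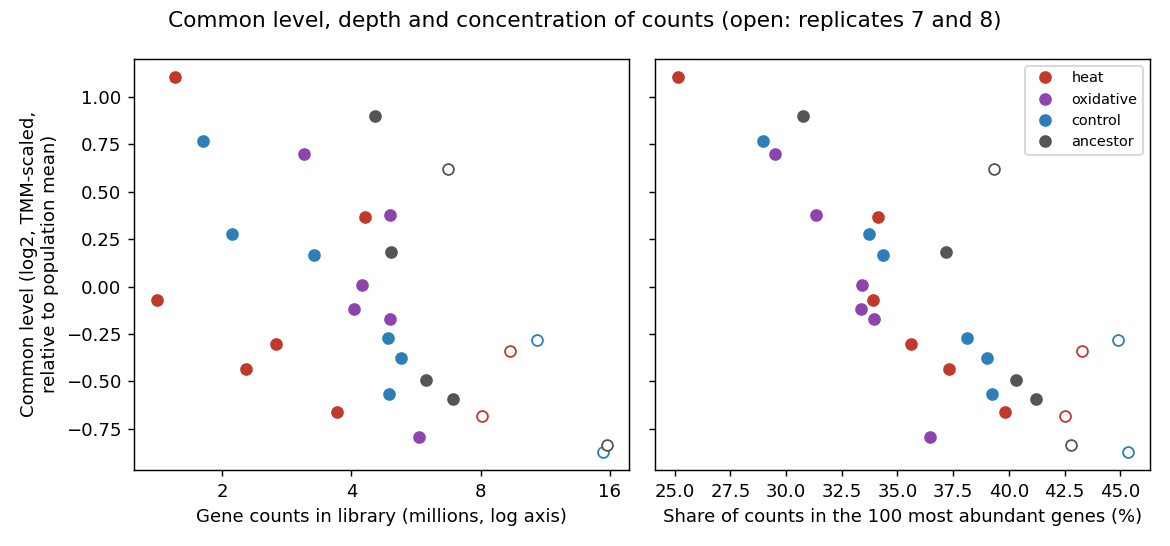
Common level with TMM scaling, in log2 units from the population mean, against gene counts per library (left, log axis) and against the share of counts in the 100 most abundant genes (right), 1 point per library and open points for replicates 7 and 8. Within each population the highest filled point has the smallest share, and heat replicate 1, with 25.1% of counts in those genes, lies at the upper left of both panels.

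Replicates 7 and 8 had no part in the choice of the genes. Their summed level was 2293 and 1740 CPM in heat replicates 8 and 7, 2520 and 1491 CPM in control replicates 8 and 7, and 1366 and 4753 CPM in ancestor replicates 8 and 7. In the ancestor, 146 of the 150 genes were at least 2-fold lower in replicate 8 than in replicate 7 and 0 at least 2-fold higher, against 19.1% and 1.58% of the genes in the level range (20.6% in either direction), and 148 of the 150 were lower to some degree. The median log2 ratio of replicate 8 over 7 was -1.81 in the 150 genes and -0.23 in the range. In the control population, 24 of the 150 were at least 2-fold higher in replicate 8 (2.07% of the range) and 1 was at least 2-fold lower (0.909%; 2.98% in either direction), with 148 of the 150 higher and a median log2 ratio of 0.77 against 0.11. In the heat population, 7 of the 150 were at least 2-fold higher (0.514% of the range) and 0 at least 2-fold lower (0.36%; 0.874% in either direction), with 135 of the 150 higher and a median of 0.35 against 0.03. With TMM the number past 2-fold was 129 in the ancestor, 9 in the control and 7 in heat, and the medians of the 150 genes kept their sign while those of the range changed theirs, to 0.18, -0.08 and -0.03. Each ratio compares 1 library with 1 library and has no replicate check.

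FL81_12810 and FL81_04489 are given because their ratios were the largest on average among the 150 genes. FL81_12810 had log2 ratios of replicate 8 over 7 of 0.20 in heat, 1.47 in control and -3.25 in ancestor libraries. Its levels were 6.63 and 5.69 CPM in heat replicates 8 and 7, 10.8 and 3.56 CPM in control replicates 8 and 7, and 5.33 and 54.9 CPM in ancestor replicates 8 and 7. FL81_04489 stood at 15.2 and 6.31 CPM in heat replicates 8 and 7, 12.7 and 5.83 CPM in control replicates 8 and 7, and 8.82 and 54.5 CPM in ancestor replicates 8 and 7. Replicates 8 and 7 held 9357212 and 8078381 gene counts in heat, 10857578 and 15447168 in control, and 15755610 and 6718320 in the ancestor. FL81_17437, at the limit of the list, was lower in replicate 8 in heat, with a log2 ratio of -0.76. By their medians the 150 genes were lower in the deeper library in the ancestor and the control and higher in it in heat.

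**Figure D5:**
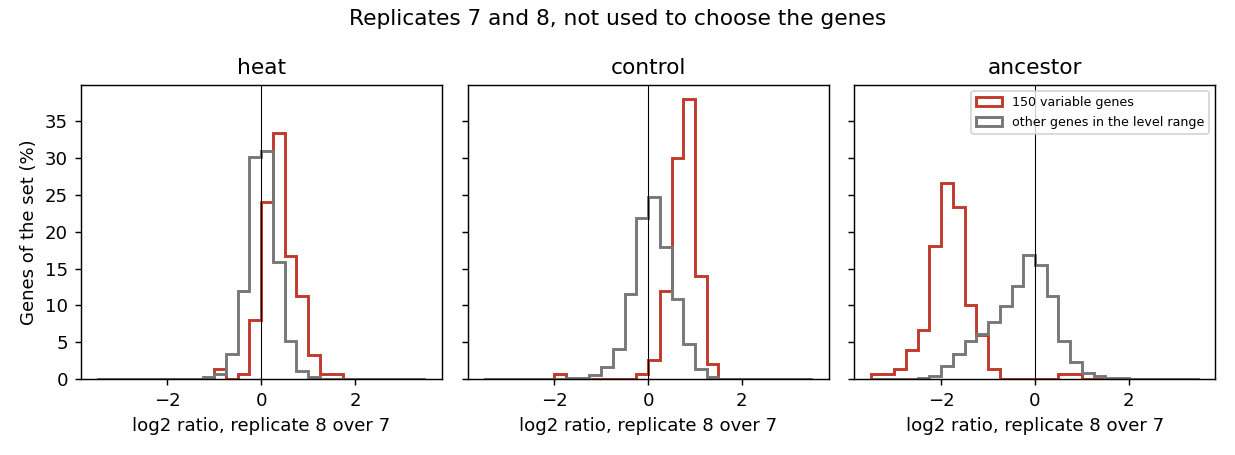
Distribution of the log2 ratio of replicate 8 over replicate 7 in the heat, control and ancestor populations, as a percentage of the 150 genes and of the 5683 other genes in the level range, with values beyond the axis in the end bins. The 150 genes centre on 0.35 in heat, 0.77 in control and -1.81 in ancestor libraries, while the other genes centre near 0 or, in the ancestor, just below it.

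The populations were then compared with each other. The choice used spread within populations and not the means, although it held all means between 10 and 300 CPM. All 150 genes passed the filter on low counts, and edgeR's quasi-likelihood test was fitted to all 28 libraries and adjusted over 11952 genes. At an edgeR adjusted p under 0.05 the 4 populations were not all alike in 4 of the 150 genes, FL81_07831, FL81_14182, FL81_18302 and FL81_19471, against 9.88% of all genes tested. The edgeR adjusted p-values of these 4 were 0.0246, 0.00635, 0.0130 and 0.00630, in that order. FL81_18302 averaged 40.8, 13.7, 9.72 and 8.83 CPM of TMM-scaled libraries in the heat, oxidative, control and ancestor populations. Its heat libraries ranged from 2.73 to 116 CPM (SD 39.5, n = 8), with heat replicates 7 and 8 at 2.73 and 3.26 CPM. With log2 depth as a covariate, added after seeing the data, the count was 18 in place of 4. In heat against control larvae 0 of the 150 passed, against 0.761% of all genes (0.594% higher, 0.167% lower), with 5 at an unadjusted p under 0.05 and 2 by DESeq2. In control larvae against the ancestor 0 of the 150 passed, against 0.0669% of all genes (0.00837% higher, 0.0586% lower), with 1 at an unadjusted p under 0.05 and 0 by DESeq2. The gene nearest to passing in heat against control was FL81_19471 (log2 fold change 2.90, SE 0.75, edgeR adjusted p = 0.0572), whose highest library was heat replicate 3. The median SE of the log2 fold change was 0.31 in the 150 genes and 0.22 in all genes for heat against control, so that a difference had to be larger here to pass. The median log2 fold change was -0.09 in heat against control, 0.01 in oxidative against control and 0.04 in control against ancestor.

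In oxidative against control larvae 4 of the 150 genes passed, 1 higher and 3 lower, against 14.0% of all genes, 6.84% higher and 7.18% lower. With the depth covariate 14 passed, 7 higher and 7 lower. The control libraries include replicates 7 and 8 and the oxidative libraries do not, so population and replicate number are partly mixed here. Between replicates 7 and 8 and replicates 3 to 6 of the other populations, 23.0% of all genes passed (below). Levels in the next sentences are CPM of TMM-scaled libraries. FL81_07831 ranged from 43.8 to 258 CPM with a median of 98.3 in the 6 oxidative libraries and from 25.3 to 76.8 CPM with a median of 42.3 in the 8 control libraries. With edgeR it rose in the oxidative population (1.24 on the log2 scale with an SE of 0.34, edgeR adjusted p = 0.0142), although the groups overlap, and its highest value was oxidative replicate 4, without which the call was lost (0.81, edgeR adjusted p = 0.103). FL81_14182 ranged from 10.1 to 31.4 CPM with a median of 18.6 in oxidative and from 21.4 to 97.5 CPM with a median of 39.3 in control libraries, and fell in oxidative larvae (-1.44, SE 0.37, edgeR adjusted p = 0.00862), with overlap between the groups; it was chosen after its value was seen. The other 2 that fell were the genes that ran against the common level. FL81_15502 averaged 44.8 ± 20.4 CPM in oxidative (n = 6) and 138 ± 78.3 CPM in control libraries (n = 8) (-1.62, SE 0.48, edgeR adjusted p = 0.0223), and FL81_02838 averaged 12.1 ± 6.01 and 37.0 ± 21.9 CPM in oxidative and control libraries (-1.62, SE 0.49, edgeR adjusted p = 0.0271). Their calls were lost with replicates 1 to 6 alone (edgeR adjusted p = 0.0580 and 0.102) and without oxidative replicate 4 or 5; that of FL81_15502 was also lost without control replicate 4 and that of FL81_02838 without control replicate 7 or 8 or oxidative replicate 2. The count of 4 became 1 and 2 without oxidative replicates 4 and 5, and 7 without heat replicate 1 or control replicate 2. The count for any difference among populations became 7 without heat replicate 1.

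Replicates 7 and 8 were also set against 3 to 6 over the heat, control and ancestor populations, with a term for population (edgeR quasi-likelihood test, 18 libraries, 12366 genes). Of the 150 genes 14 were lower in replicates 7 and 8 and 0 higher, against 12.0% and 10.9% of all genes, so the share that passed, 9.33%, lay below the background of 23.0%. At an unadjusted p under 0.05 there were 26, and by DESeq2 17 genes were lower and 0 higher. Replicates 3 to 6 entered the choice of the genes, with a mean of at least 10 CPM required, and 7 and 8 did not. FL81_18302, for example, averaged 11.6 CPM in the ancestor libraries used for the choice and 9.35 CPM in all ancestor libraries. The choice itself can therefore favour lower levels in replicates 7 and 8, and its part in these counts was not tested. The levels of FL81_09059 and FL81_18302 that follow are CPM of TMM-scaled libraries. FL81_09059 stood between 2.44 and 22.9 CPM with a median of 5.68 in the 6 libraries of replicates 7 and 8 and between 15.8 and 67.2 CPM with a median of 25.8 in the 12 libraries of replicates 3 to 6 (log2 fold change -2.36, SE 0.37, edgeR adjusted p = 9.76e-05). Ancestor replicate 7 was the highest of those 6 libraries for this gene, and the groups overlapped through it. FL81_18302 stood between 2.23 and 7.09 CPM with a median of 3.02 in replicates 7 and 8 and between 4.83 and 116 CPM with a median of 13.3 in replicates 3 to 6 (-2.31, SE 0.46, edgeR adjusted p = 0.00113), with the groups overlapping at the low end of replicates 3 to 6. Its highest values were all in heat, at 40.6, 60.7, 116 and 68.6 CPM in heat replicates 3 to 6 and 2.73 and 3.26 in 7 and 8. Control and ancestor replicates 3 to 6 stood between 4.83 and 18.5 CPM. Replicates 7 and 8 held between 6718320 and 15755610 gene counts and replicates 3 to 6 between 2277854 and 6887393. With log2 depth as a covariate, added after seeing the data, 8 of the 150 genes passed, all higher in replicates 7 and 8, and neither FL81_09059 (-0.82, edgeR adjusted p = 0.307) nor FL81_18302 (-1.34, edgeR adjusted p = 0.265) did. The direction of the counts therefore depended on that term. Of replicates 7 and 8, only ancestor replicate 7 lay within the depth range of replicates 3 to 6. Depth and replicate number can therefore hardly be told apart in this fit. Leaving out 1 library gave 24 genes without ancestor replicate 6, 30 without ancestor replicate 7, 9 without ancestor replicate 8 and 9 without control replicate 7.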

How the data were processed

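RNA of pooled L1 larvae was measured in 28 libraries. Per the submitters' processing notes, the authors aligned reads with GSNAP and counted them with HTSeq; the sources used here name no build, annotation or strand setting. The deposited files hold raw counts per gene. Their 5 summary lines, between 36.1% and 67.5% of each file's total, were left out of library totals, which ranged from 1406684 to 15755610. Without the strand setting, overlapping genes cannot be told apart. Near-identical genes cannot be told apart either, whatever the strand setting. All 86 pairs of libraries within a population differed beyond counting noise (chi-square per degree of freedom of 2.09 or more), so no library was treated as a repeat of another; this does not show that they came from separate cultures.

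CPM, scores, clusters (average linkage on 1 - r) and slopes were computed in Python 3.11.15 with a pseudocount of 0.5 CPM. Tests used edgeR 4.0.16 in R 4.3.3 (filterByExpr, minimum count 10, TMM, Benjamini-Hochberg at 0.05); DESeq2 1.42.0 was an alternative. Standard errors come from the fold change and its F statistic. The test was tried on simulated data. Named genes were the 6 highest scores, the genes at the limit, the 2 central to the cluster, the most alike outside it, those with the largest ratios between replicates 8 and 7, and up to 2 rises and 2 falls per comparison; others are said to be chosen after their values were seen. The genes and tests were chosen with earlier results of these data known.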

Additional observations from a re-analysis of the deposited data

Results flagged for a closer look

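Each population's summed level of the 150 genes, and the CPM of the 23 named genes, were examined for a library whose gap to its nearest neighbour was large for the range of its population (Dixon's 95% limit). This marked 29 of 96 sets of values, where chance marks about 1 in 20. Most of the genes were chosen for their spread in these libraries and they move together, so the number of marks follows from the choice and is not read against that rate. Heat replicate 1 was marked 17 times: for the summed level (10452 CPM, against 1740 to 4945 in the other heat libraries), FL81_12810 (162), FL81_05232 (52.7), FL81_13484 (231), FL81_10972 (57.9), FL81_12806 (95.1), FL81_07538 (23.8), FL81_17437 (63.6), FL81_21109 (61.1), FL81_05641 (55.3), FL81_20413 (26.4), FL81_14778 (258), FL81_19443 (91.9), FL81_04489 (130.5), FL81_15189 (59.8), FL81_20110 (252) and FL81_10862 (152.4 CPM).

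Control replicate 2 was high for FL81_12810 (82.4), FL81_05232 (55.3), FL81_10972 (57.5), FL81_12806 (53.1) and FL81_04489 (84.0 CPM). Oxidative replicate 4 was high for FL81_05232 (51.6), FL81_05641 (52.8) and FL81_07831 (321 CPM, against 40.8 to 115 in the other oxidative libraries). Ancestor replicate 5 was high for FL81_20413 (26.2 CPM). The remaining marks fell on genes outside the common cluster: FL81_19471 in heat replicate 3 (544 CPM) and control replicate 1 (55.2 CPM), and FL81_02838 in ancestor replicate 6 (42.0 CPM).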

How the results depend on the processing

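The list of 150 genes kept 98 genes with TMM, 124 with the SD of log2 values and 94 with thinned libraries, and between 66 and 150 when 1 library was left out, with 66 without ancestor replicate 5, 91 without oxidative replicate 4 and 99 without heat replicate 1. In the counts of genes that differed between populations, heat against control gave 2 with DESeq2, 2 without the filter on low counts, 2 with replicates 1 to 6, 3 with a depth covariate and 0 to 2 without 1 library (1 or 2 without control replicate 1, 2 or 7 or heat replicate 1, 2, 7 or 8). Oxidative against control gave 14 with the depth covariate, 7 higher and 7 lower, and 1 to 7 without 1 library. Control against ancestor gave 1 with the depth covariate and 0 in each fit without 1 library. Any difference among populations gave 18 with the depth covariate, 2 without heat replicates 3 to 6 and 3 to 7 without 1 library. Replicates 7 and 8 against 3 to 6 gave 27 without the filter, 8 with the depth covariate and 9 to 30 without 1 library. The depth covariate and thinning were chosen after seeing the data. The numbers past 2-fold between replicates 8 and 7 were 9 and 2 in the control with TMM and with a pseudocount of 5, 1 in heat with that pseudocount, and 130 in the ancestor. The cause of these shifts was not tested. With the replicate number as a block, heat against control gave 1 gene, oxidative against control 6, control against ancestor 0 and any difference 6, and in oxidative against control FL81_15502 and FL81_02838 had edgeR adjusted p-values of 0.0667 and 0.0547; same-numbered libraries of different populations deviated together (r over 0.1) in 20 of 36 pairs (median r 0.18), against 87 of 256 pairs with different numbers (median r 0.00); since not every pair did and no label says what a number marks, the numbers were not taken to pair the samples. No block could be fitted for replicates 7 and 8 against 3 to 6. The fold changes of FL81_02838, FL81_07831, FL81_14182 and FL81_15502 (oxidative against control) and of FL81_09059 and FL81_18302 (replicates 7 and 8 against 3 to 6) kept their sign under the alternatives run for them. Depth limits the low levels: a listed gene's smallest count in the 22 libraries was 3 to 225, with a median of 20.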
